A study of Xenopus tropicalis with 27 samples.

Results

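Brains of untreated wildtype *Xenopus tropicalis* tadpoles were compared between stage 46 and stage 45. The comparison took 3 stage 46 and 3 stage 45 libraries of the untreated time course by their labels, that is 6 of the 18 time course libraries and of the 27 libraries of the series. *X. tropicalis* is a small diploid clawed frog whose tadpoles are staged by outer form. Time course animals were kept in ordinary growth medium with no compound added, and RNA was taken from dissected brain with Trizol, selected for polyadenylated transcripts and made into strand-marked libraries. The other untreated groups were stages 40, 42, 44 and 47, each with 3 libraries. The remaining 9 libraries were stage 46 brains after β-estradiol, cyclopamine or the solvent DMSO, and of these only the DMSO libraries are used below, beside the untreated ones. The labels do not say whether time course brains were pooled, nor whether replicates came from separate clutches or days. The p-values therefore measure the spread between libraries of a stage, estimated over all 18 time course libraries in one fit. That spread may be technical.

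Around these stages the tadpole uses up its yolk and begins to feed, while the brain continues to grow from progenitors that line the ventricles. A growing cell spends much of its transcription on ribosome assembly, protein folding and nucleotide supply, and a dividing one also on DNA replication. As neurons mature, they express neurofilaments, ion channels and synaptic proteins, and oligodendrocytes begin to wrap axons in myelin.

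The 6 libraries held 12.9 to 20.6 M counts, and libraries of a stage were alike, with a biological coefficient of variation of 0.0550 at stage 45 and 0.0628 at stage 46. On the first principal component of the 18 libraries, which held 67.3% of the variance, stage 45 lay between -9.81 and -5.46, stage 46 between 33.0 and 44.3, and stage 47 between 98.1 and 99.1. On the third (4.74% of the variance) the stage 45 libraries stood apart at 24.6 to 29.4, against 0.819 to 2.17 at stage 46. The tissue label was checked on elavl3, an RNA-binding protein of neurons, and sox2, a transcription factor of neural progenitors. Their levels, in counts scaled to library size (CPM), were 591 to 651 and 221 to 267 over the 6 libraries.

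Of 16049 genes tested with edgeR's quasi-likelihood test, 6760 (42.1%) differed between stage 46 and stage 45 at a Benjamini-Hochberg adjusted p under 0.05. Of these, 3078 (19.2% of all genes tested) were higher and 3682 (22.9%) lower at stage 46, and in 6538 of the 6760 the libraries of the stages did not overlap, as in 55.1% of all genes tested. The split depended on the scaling: with upper quartile factors 3880 were higher and 3051 lower. Most differences were small. The median size among called genes was 0.46 log2 units, and 477 genes rose (2.97%) and 355 fell (2.21%) by at least 1 log2 unit. The median over all genes was -0.01. From stage 44 to 45, 3667 genes (22.8%) differed, and from stage 46 to 47, 7835 (48.8%). These steps share libraries with the comparison of stage 46 with stage 45 and are given beside it for context.

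The machinery that makes ribosomes was lower at stage 46. Of 40 measured genes of ribosome biogenesis, 39 fell and 1 rose, with a median log2 fold change of -0.91 and a range of -1.49 to 0.24. The nucleolar phosphoprotein nolc1 was at 178, 159 and 163 CPM in the stage 45 libraries and at 64.0, 57.2 and 60.4 CPM in the stage 46 libraries. All 3 stage 46 values lay at well under the lowest stage 45 value, and the log2 fold change was -1.46 ± 0.06 (SE, 3 libraries a stage, adjusted p = 2.97e-13). The rRNA methyltransferase nop2 fell from 106, 108 and 109 CPM to 43.0, 37.5 and 39.8 CPM (-1.43 ± 0.07). The core box C/D snoRNP protein nop58 fell by 1.26 ± 0.07 log2 units, and wdr12, a factor of large subunit assembly, by 1.49 ± 0.08, again with no overlap of the stages. The small subunit factors wdr36 (-1.38 ± 0.07) and utp25 (-1.56 ± 0.08) and the snoRNP protein snu13 (-1.47 ± 0.08) were among the 8 genes that fell with the lowest p of the whole table. From stage 44 to 45, 9 of the 40 had fallen and 2 had risen. From stage 46 to 47, 20 fell and 2 rose. Tested against the mean of stages 45 and 47, 32 of the 40 were lower at stage 46 and none higher, beside 5.98% of all genes lower. The structural proteins of the ribosome itself were different in size of change: of 73 cytosolic ribosomal protein genes 2 fell and none rose (median -0.08). That count was 1 to 20 over the alternatives, and 9 without stage 45 replicate 2, 15 with limma on the deposited values and 20 without stage 46 replicate 1.

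**Figure D1:**
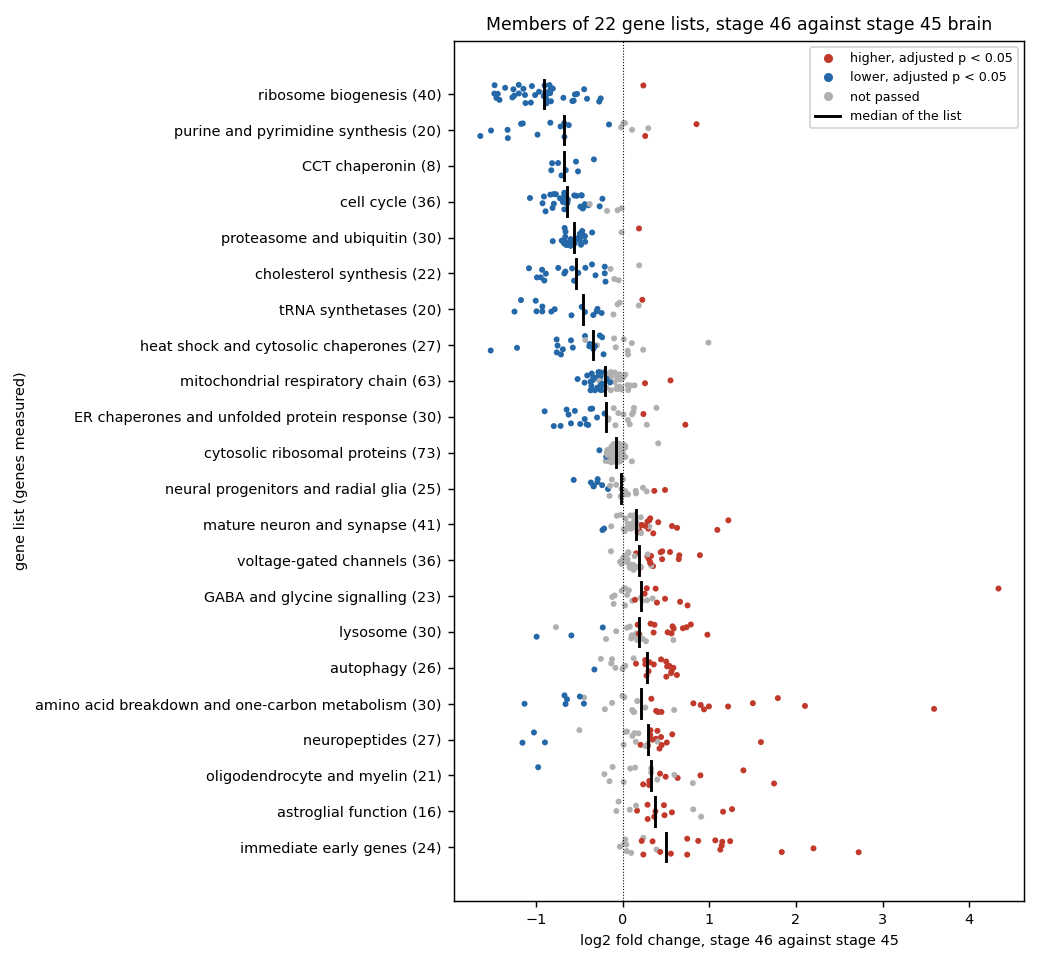
Log2 fold change of stage 46 against stage 45 (horizontal axis) for each measured member of 22 gene lists (vertical axis, number of members in brackets), with called genes in red (higher) or blue (lower) and the list median as a black bar. Ribosome biogenesis, the chaperonin, cell cycle and proteasome lists lie almost wholly to the left of 0, while immediate early, astroglial and myelin lists lie mostly to the right. The point at the far right of the GABA list is gabrd, whose fitted value is no bound since its stage 45 counts were under the floor.

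Protein folding and protein breakdown genes fell with them. All 8 subunits of the CCT chaperonin, the ring that folds actin and tubulin, were lower at stage 46 (median -0.68). Its subunit tcp1 was at 461, 421 and 403 CPM at stage 45 and at 248, 244 and 238 CPM at stage 46, without overlap (-0.82 ± 0.05, adjusted p = 8.13e-11). Of 27 genes of the heat shock and chaperone list 17 fell and none rose (median -0.34). Beside cytosolic chaperones this list holds the mitochondrial hspd1 and hspe1, the endoplasmic reticulum chaperone serpinh1 and the heat shock transcription factors hsf1 and hsf2. The largest fall in the list was that of hsph1, a nucleotide exchange factor of Hsp70, from 140, 132 and 132 CPM to 51.1, 47.6 and 41.9 CPM (-1.53 ± 0.08, adjusted p = 3.77e-12). The Hsp70 and Hsp90 co-chaperones dnaja1 (-0.69 ± 0.06) and stip1 (-0.77 ± 0.06) and the mitochondrial chaperonin hspd1 (-0.75 ± 0.08) were lower in every stage 46 library than in any stage 45 library. In the endoplasmic reticulum list 15 of 30 genes fell and 2 rose (median -0.19, 1 rose without stage 45 replicate 1), including the Hsp70 protein hspa5 (-0.72 ± 0.08), the Hsp90 protein hsp90b1 (-0.63 ± 0.07) and the secreted stress factor manf (-0.90 ± 0.10). This list had also fallen from stage 44 to 45, in 15 of 30 genes. Of 30 proteasome and ubiquitin genes 28 fell and 1 rose (median -0.57, range -0.81 to 0.19). The regulatory particle subunit psmd6 was at 247, 247 and 240 CPM and then at 146, 142 and 131 CPM (-0.81 ± 0.07, adjusted p = 3.01e-09). The core subunit psma3 (-0.71 ± 0.06), the ATPase psmc1 (-0.60 ± 0.05) and the deubiquitinase psmd14 (-0.65 ± 0.06) fell likewise. From stage 44 to 45, 1 of these 30 genes had fallen and none had risen.

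Genes that supply nucleotides, charged tRNAs and sterols were lower as well. The purine and pyrimidine and the tRNA synthetase lists, like the chaperonin and autophagy lists, were chosen after gene values were seen, as whole families. Of 20 purine and pyrimidine synthesis genes 13 fell and 2 rose (median -0.68). CTP synthase ctps1 fell from 61.1, 55.0 and 57.8 CPM to 24.7, 23.0 and 21.5 CPM (-1.33 ± 0.08, adjusted p = 1.62e-11). The first enzyme of purine synthesis, ppat, fell by 1.33 ± 0.10 and UMP synthase umps by 1.52 ± 0.12 log2 units. Of 20 tRNA synthetase genes 15 fell and 1 rose (median -0.46), among them farsb (-1.18 ± 0.07) and vars1 (-1.25 ± 0.08), which charge tRNAs with phenylalanine and valine. Of these 20, 12 had already fallen from stage 44 to 45. Of 22 cholesterol synthesis genes 18 fell and none rose (median -0.54). Squalene epoxidase sqle was at 78.7, 102 and 89.7 CPM at stage 45 and at 45.0, 46.3 and 44.4 CPM at stage 46, without overlap (-0.99 ± 0.09, adjusted p = 1.13e-08). Farnesyl-diphosphate farnesyltransferase fdft1 (-0.93 ± 0.08), the demethylating enzyme msmo1 (-1.08 ± 0.10) and the isomerase idi1 (-0.91 ± 0.09) fell by like amounts. From stage 44 to 45, 2 of the 22 had risen and 2 had fallen. The mitochondrial respiratory chain changed less, with 32 of 63 genes lower and 2 higher (median -0.21), for example the ATP synthase subunit atp5f1d (-0.52 ± 0.07). The falls numbered 20 without stage 45 replicate 1 and 21 without stage 46 replicate 3, and 1 gene rose without stage 46 replicate 1. Of 26 genes of fatty acid synthesis and use 10 fell and 6 rose (3 rose without stage 46 replicate 2 or 3), with the elongase elovl5 lower (-0.89 ± 0.08) and the desaturase scd higher (0.94 ± 0.12).

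**Figure D2:**
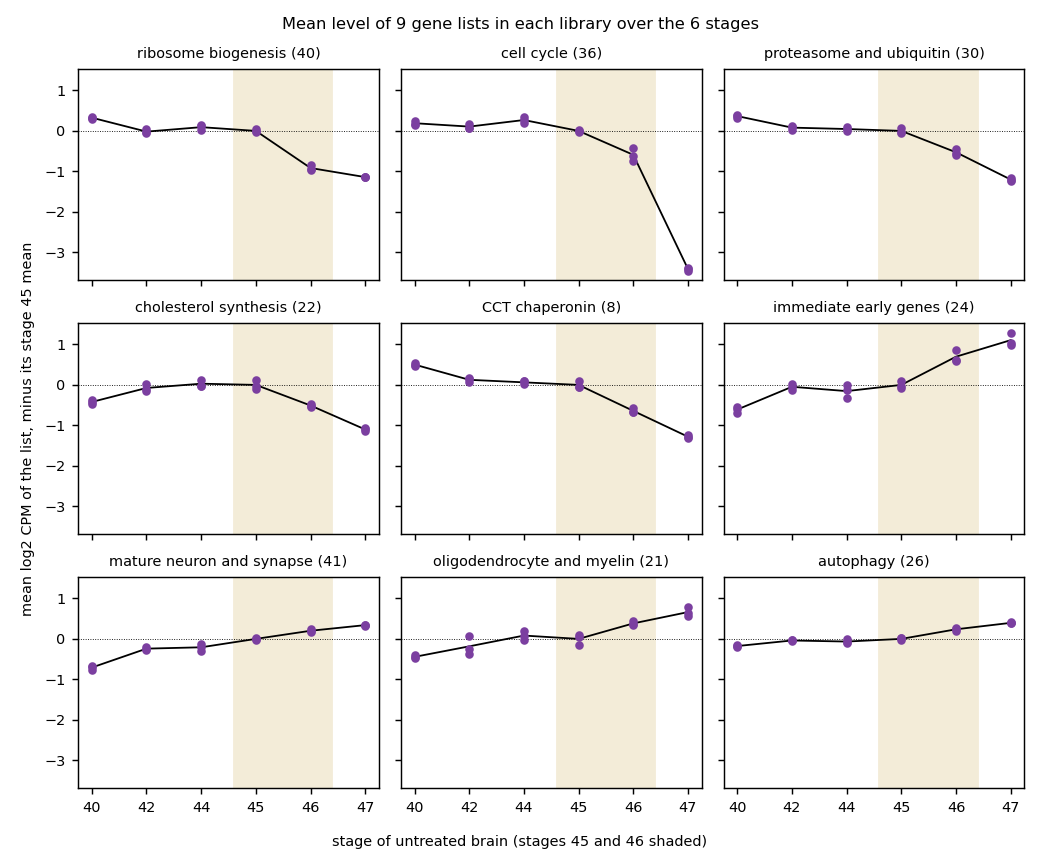
Mean log2 CPM of 9 gene lists in each library (points) and its stage mean (line) over the 6 stages, relative to the stage 45 mean of the list. Ribosome biogenesis lay between -0.06 and 0.13 at stages 42 and 44 and at -0.97 to -0.85 at stage 46, while the cell cycle list was at -0.73 to -0.43 at stage 46 and at -3.46 to -3.39 at stage 47.

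Cell division genes fell in nearly all members. Of 36 cell cycle genes 32 were lower at stage 46 and none higher (median -0.65, range -1.07 to -0.02). The replication clamp pcna was at 270, 249 and 262 CPM at stage 45 and at 158, 134 and 120 CPM at stage 46 (-0.93 ± 0.08, adjusted p = 7.6e-09). All stage 46 libraries lay under all stage 45 libraries, as they did for the replicative helicase subunits mcm2 (-1.07 ± 0.08), mcm5 (-0.80 ± 0.08) and mcm7 (-0.89 ± 0.09). The proliferation marker mki67 changed less, from 255, 245 and 259 CPM to 228, 207 and 195 CPM (-0.27 ± 0.06, adjusted p = 0.00159). The step was part of a longer fall: 21 of the 36 genes had fallen from stage 44 to 45, and all 36 fell from stage 46 to 47. Tested against the mean of stages 45 and 47, 34 of the 36 lay higher at stage 46 and none lower, beside 8.7% of all genes higher. In bulk brain RNA, fewer cells of a kind and less RNA per cell cannot be told apart.

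Genes of progenitors and of newborn neurons were mixed. Of 25 genes of neural progenitors and radial glia 8 fell and 2 rose (median -0.03, and 0.01 and 0.03 with the 2 other scalings of the counts). The rises numbered 4 with RLE factors and 5 with upper quartile factors, with limma on the deposited values and in a fit of the 6 libraries alone. The RNA-binding protein msi1 was at 423, 416 and 399 CPM and then at 298, 267 and 270 CPM, without overlap (-0.57 ± 0.06, adjusted p = 1.73e-07). The intermediate filament nes (-0.37 ± 0.08) and the fatty acid binding protein fabp7 (-0.34 ± 0.07) of radial glia also fell. The 2 members that rose, hes5.5 and glul, had log2 fold changes of 0.41 to 0.56 and 0.34 to 0.42 over the settings. For sox2, at 261, 267 and 262 CPM and then 246, 221 and 234 CPM, the fall of 0.17 ± 0.06 passed (adjusted p = 0.025) but was lost under 7 alternatives, 4 of them with a library left out (adjusted p up to 0.143). In the list of neurogenesis and newborn neurons, 7 of 27 members fell and 1 rose, beside 22.9% of all genes lower and 19.2% higher. The count of falls was 1 without stage 46 replicate 3 and 4 without stage 45 replicate 3 or stage 46 replicate 2. It was 3 with upper quartile factors, 8 in a fit of the 6 libraries alone and 10 without stage 46 replicate 1. The rises numbered 5 with upper quartile factors, where they outnumbered the falls, and 5 in a fit of the 6 libraries alone. The proneural factor neurod4 fell from 39.5, 37.3 and 44.2 CPM to 32.6, 25.2 and 26.6 CPM (-0.52 ± 0.09, adjusted p = 6.24e-05). The newborn neuron genes elavl3 (-0.01 ± 0.05) and tubb3 (0.09 ± 0.06) did not pass.

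Among genes of mature neurons the neurofilaments rose most, while over the list most members did not pass. Of 41 genes of mature neurons and synapses 15 rose, 2 fell and 24 did not pass (median 0.15; the falls numbered 1 without stage 45 replicate 1 and 0 without stage 45 replicate 3). Without stage 45 replicate 1 or stage 46 replicate 3, 12 rose. With upper quartile factors, or in a fit of the 6 libraries alone, 22 rose. The heavy neurofilament nefh was at 189, 187 and 185 CPM in stage 45 libraries and at 434, 435 and 434 CPM in stage 46 libraries (1.22 ± 0.12, adjusted p = 2.93e-07). The light chain nefl went from 175, 159 and 162 CPM to 366, 349 and 345 CPM (1.09 ± 0.10), and the medium chain nefm rose by 0.63 ± 0.10. In each of these the stages were wholly apart, and at stage 47 nefh and nefl did not differ from stage 46 by the test (0.03 ± 0.11 and 0.04 ± 0.10), while nefm was lower (-0.49 ± 0.10). The microtubule regulator stmn4 rose by 0.57 ± 0.07. Of 36 voltage-gated channel genes 16 rose and none fell (median 0.19), led by the sodium channel subunit scn2b, from 84.7, 88.9 and 86.0 CPM to 148, 161 and 172 CPM (0.89 ± 0.08, adjusted p = 2.73e-08). Without stage 45 replicate 1 or stage 46 replicate 3, 11 of the 36 rose, and 19 rose with RLE or upper quartile factors. The calcium channel subunit cacnb2 (0.65 ± 0.06) and the potassium channels kcnc4 (0.54 ± 0.11) and kcnc2 (0.45 ± 0.09) rose too.

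Genes of inhibitory and of excitatory transmission had some members that rose, the excitatory ones in a share near that of all genes. Of 23 genes of GABA and glycine signalling 9 rose and none fell (median 0.21). Without stage 45 replicate 3 or stage 46 replicate 3, 6 rose, and 13 rose in a fit of the 6 libraries alone. Glutamate decarboxylase gad2, which makes GABA, was at 214, 251 and 234 CPM and then at 372, 394 and 406 CPM (0.75 ± 0.09, adjusted p = 1.31e-06). The chloride exporter slc12a5, which sets the reversal potential of GABA currents in mature neurons, rose from 501, 532 and 496 CPM to 680, 737 and 726 CPM (0.49 ± 0.09). The GABA-A receptor subunit gabrd was at 0.0487, 0.097 and 0 CPM at stage 45, under the 3 counts taken as the floor of a library, and at 0.796 to 1.502 CPM at stage 46, higher in all 3 libraries. Of 25 glutamate signalling genes 6 rose and 1 fell, beside 19.2% of all genes higher (10 rose with upper quartile factors and 11 in a fit of the 6 libraries alone, and none fell without stage 45 replicate 2 or 3 or stage 46 replicate 1), among them the NMDA receptor subunits grin1, from 295, 359 and 364 CPM to 468, 510 and 540 CPM (0.58 ± 0.11, adjusted p = 0.000407), and grin2c (0.62 ± 0.13). The NMDA subunit grin2b had values of 151, 150 and 148 CPM and then 166, 174 and 180 CPM and did not pass (0.21 ± 0.09, adjusted p = 0.0686). It passed under 6 alternatives. Acetylcholinesterase ache rose by 0.74 ± 0.11, but of the 17 monoamine and acetylcholine genes of its list 2 rose and 3 fell. Among the 3 was the vesicular transporter slc18a3 (-0.37 to -0.27 over the settings, a call lost under 4 alternatives).

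Some glial genes rose in the same step. Of 21 genes of oligodendrocytes and myelin 9 rose, 1 fell and 11 did not pass (median 0.33; the fall was lost without stage 45 replicate 2 or 3 and without stage 46 replicate 2 or 3). The gene bcas1, a marker of newly myelinating oligodendrocytes in mammals, went from 3.70, 3.44 and 1.92 CPM to 10.4, 11.01 and 9.98 CPM (1.75 ± 0.22). Stage 45 replicate 3 was the lowest library and the stages did not overlap. The myelin-associated glycoprotein mag rose by 0.90 ± 0.12, cnp by 0.63 ± 0.14, and myelin basic protein mbp by 0.23 ± 0.07 (100, 102 and 94.0 CPM, then 116, 115 and 118 CPM). Of 16 genes of astroglial function 10 rose, none fell and 6 did not pass (median 0.37). The folate enzyme aldh1l1, a marker of astrocytes in mammals, rose from 13.7, 16.3 and 17.1 CPM to 35.4, 33.3 and 43.6 CPM (1.26 ± 0.13, adjusted p = 1.34e-07), and the bicarbonate transporter slc4a4 rose by 1.16 ± 0.11.

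**Figure D3:**
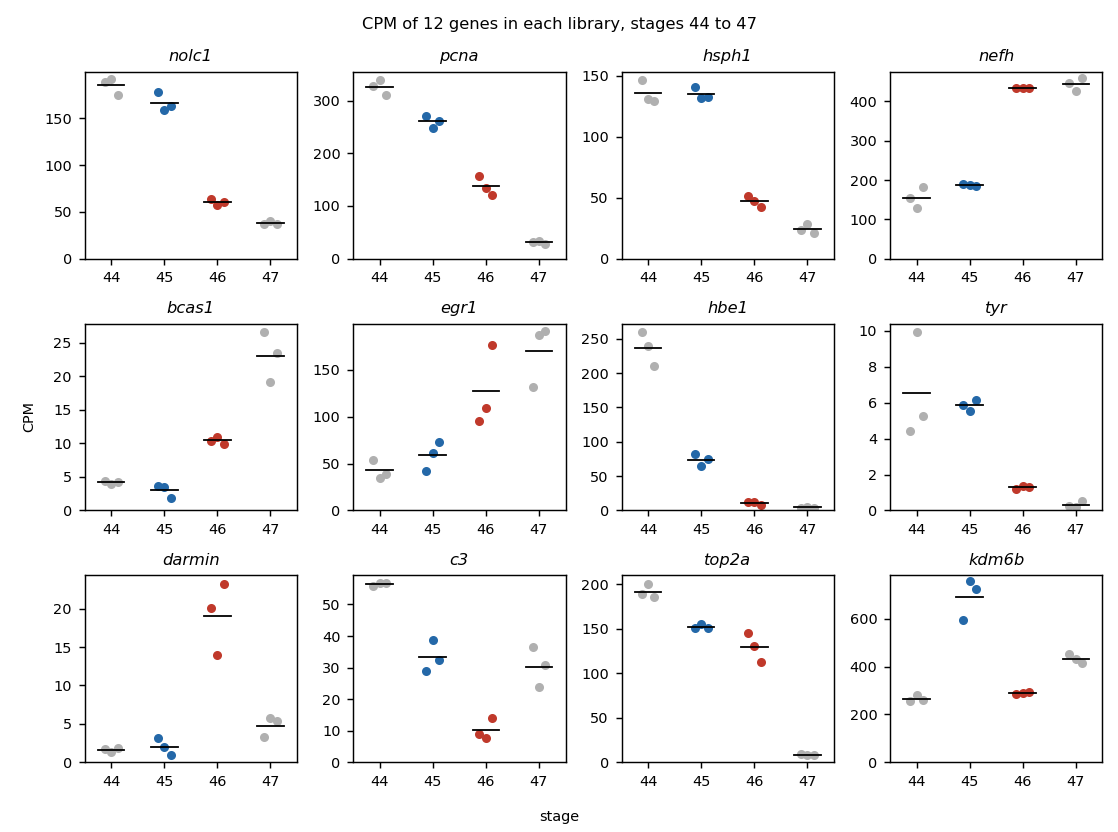
CPM (vertical axes, from 0) of 12 genes in each library at stages 44, 45 (blue), 46 (red) and 47, with the stage mean as a line. For nolc1, pcna, hsph1, nefh, bcas1, hbe1 and tyr the step from stage 45 to 46 separates all libraries, while darmin is high and c3 low at stage 46 against both neighbours.

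Immediate early genes, whose transcription follows neuronal firing and other stimuli within minutes, were higher at stage 46. Of 24 measured members 16 rose and none fell (median 0.49). The transcription factor egr1 was at 42.4, 61.3 and 73.1 CPM at stage 45 and at 95.0, 109 and 177 CPM at stage 46 (1.12 ± 0.27, adjusted p = 0.0043). In a fit of the 6 libraries alone its adjusted p was 0.0585. The neuron-specific factor npas4 rose from 13.6, 17.9 and 21.1 CPM to 35.5, 32.8 and 46.8 CPM (1.15 ± 0.26), and fos from 12.42, 16.2 and 21.1 CPM to 31.9, 33.0 and 50.1 CPM (1.24 ± 0.23). Stage 46 replicate 3 was the highest library for these genes, and the stages did not overlap. The orphan receptor nr4a1 (1.83 ± 0.27), the synaptic protein gene arc (1.14 ± 0.20) and egr4 (2.201 ± 0.40) rose as well. From stage 44 to 45, 3 of the 24 had risen, npas4 among them (1.86 ± 0.31), and from stage 46 to 47, 11 rose and 3 fell. How long dissection took in each library was not given in the labels, and its part in these values was not tested.

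Neuropeptide and hormone genes moved in both directions. Of 27 neuropeptide genes, which include the secretory granule proteins, 13 rose and 3 fell (median 0.29). The granin scg3 was at 124, 130 and 126 CPM and then at 180, 181 and 204 CPM (0.57 ± 0.07, adjusted p = 1.65e-06). The opioid precursor penk (0.45 ± 0.08) and adcyap1, the precursor of PACAP (0.38 ± 0.07), rose. The 3 that fell lie outside the rule for named genes and were picked after their values were seen: oxt, the precursor of the oxytocin-family peptide, fell from 41.5, 40.0 and 42.0 CPM to 22.2, 17.97 and 15.4 CPM (-1.16 ± 0.25, adjusted p = 0.0018). The vasopressin-family precursor avp fell by 1.03 ± 0.18 and pmch, the precursor of melanin-concentrating hormone, by 0.90 ± 0.23. Picked in the same way, agrp, a peptide that drives feeding in mammals, rose from 2.58, 3.15 and 1.92 CPM to 7.69, 7.51 and 8.38 CPM (1.59 ± 0.42, adjusted p = 0.0069). Of 14 pituitary genes 3 rose and 1 fell, beside 19.2% of all genes higher and 22.9% lower. Thyrotropin subunit tshb was at 3.21, 1.99 and 2.31 CPM and then at 5.31, 10.4 and 9.25 CPM (1.73 ± 0.26, adjusted p = 1.29e-05), and its partner cga rose by 1.13 ± 0.20. Luteinizing hormone subunit lhb fell by 0.45 ± 0.13, a call lost without stage 45 replicate 1 (adjusted p = 0.0517). Growth hormone gh1 was at 35.1, 26.0 and 21.2 CPM and then at 81.0, 58.3 and 64.7 CPM, without overlap, and did not pass (1.29 ± 0.61, adjusted p = 0.109). It passed in a fit of the 6 libraries alone (adjusted p = 0.0104).

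Genes of the thyroid hormone axis, the endocrine system that later drives metamorphosis, changed little at this step. Of 18 measured genes 2 rose and 2 fell, beside 19.2% of all genes higher and 22.9% lower. The activating deiodinase dio2 was at 37.1, 33.9 and 34.5 CPM and then at 28.6, 22.6 and 24.3 CPM (-0.49 ± 0.09, adjusted p = 0.000125), and the receptor thrb at 8.96, 11.01 and 11.3 CPM and then at 13.3, 14.6 and 13.9 CPM (0.43 ± 0.11, adjusted p = 0.00419). The receptor thra (0.36 ± 0.24), the inactivating deiodinase dio3 (0.06 ± 0.30) and the early response gene klf9 (0.06 ± 0.28) did not pass. Of 13 genes of the glucocorticoid response 4 rose and none fell (8 rose with either other scaling of the counts), led by cebpd, a transcription factor, from 11.4, 13.4 and 12 CPM to 28.1, 18.5 and 22.2 CPM (0.90 ± 0.16). The hormone crh, at 0.828, 1.02 and 1.54 CPM and then 1.66, 1.61 and 1.70 CPM, did not pass (0.60 ± 0.32).

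Genes of amino acid, lysosomal and autophagic breakdown had more members that rose than fell, though many did not pass. Of 30 genes of amino acid breakdown and one-carbon metabolism 13 rose and 6 fell (median 0.21, range -1.14 to 3.59). The serine dehydratase sds had the largest rise of the list, from 2.39, 2.42 and 1.92 CPM to 17.2, 19.5 and 44.9 CPM (3.59 ± 0.52, adjusted p = 0.000108). It was far above stage 45 in all stage 46 libraries, highest in replicate 3, and rose again to 260 to 557 CPM at stage 47. Proline dehydrogenase prodh went from 2.34, 2.72 and 2.15 CPM to 9.62, 10.5 and 11.2 CPM (2.103 ± 0.19, adjusted p = 7.66e-09). The kynurenine aminotransferase kyat1 rose by 1.501 ± 0.12 and the mitochondrial folate enzyme mthfd2 by 0.94 ± 0.06, while the cytosolic folate enzyme mthfd1 fell by 1.14 ± 0.08. Of 30 lysosome genes 13 rose and 3 fell (median 0.19), with the lysosomal growth factor grn at 30.8, 31.4 and 35.5 CPM and then at 62.4, 67.6 and 61.5 CPM (0.98 ± 0.08). Of 26 autophagy genes 17 rose and 1 fell (median 0.27), including the protease atg4b (0.62 ± 0.07), the Vps34 complex subunit becn1 (0.50 ± 0.06) and the ATG8 protein gabarapl1 (0.44 ± 0.06). Of 32 genes of hypoxia and glycolysis 14 rose and 2 fell (median 0.21, 1 fell without stage 45 replicate 1 or stage 46 replicate 3), such as the mitophagy receptor bnip3, from 77.3, 76.9 and 84.4 CPM to 129, 148 and 155 CPM (0.86 ± 0.07), and the kinase pgk1 (0.73 ± 0.08). Among the 8 rises with the lowest p were selenop1, the plasma selenium carrier, from 63.8, 60.4 and 60.0 CPM to 169, 177 and 189 CPM (1.54 ± 0.06, adjusted p = 2.89e-13), and sesn1, a sestrin that restrains mTORC1 (1.13 ± 0.07).

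Chromatin and RNA regulators changed in both directions. The ATPases of the ISWI family went opposite ways: smarca5 fell from 199, 199 and 201 CPM to 112, 102 and 101 CPM (-0.93 ± 0.06, adjusted p = 1.78e-10), and smarca1 rose from 4.92, 4.95 and 5.31 CPM to 18.6, 20.9 and 21.6 CPM (2.01 ± 0.11, adjusted p = 1.07e-11). The stages were wholly apart in both. The histone H3K27 demethylase kdm6b was at 595, 756 and 724 CPM at stage 45 and at 287, 288 and 292 CPM at stage 46 (-1.26 ± 0.09), and had risen by 1.38 ± 0.09 from stage 44. In all, 11 of 48 chromatin regulators rose and 15 fell (median 0.01), beside 19.2% of all genes higher and 22.9% lower. With upper quartile factors 15 rose and 11 fell. Of 43 splicing and RNA-binding genes 19 fell and 4 rose (median -0.12), among them the splicing repressor ptbp1 (-0.75 ± 0.06), whose decline accompanies neuronal differentiation in mammals, and the cold-inducible cirbp (-0.63 ± 0.05), while the kinase clk1 rose (0.90 ± 0.08). The arginine methyltransferase prmt1 fell from 594, 570 and 566 CPM to 260, 271 and 258 CPM (-1.13 ± 0.06), and the RNA transport protein stau2 (1.08 ± 0.06) and the neuronal and muscle elongation factor eef1a2 (1.12 ± 0.07) rose. Of 10 large-effect autism genes 3 rose and 2 fell, with scn2a (0.45 ± 0.10) and arid1b (0.24 ± 0.06) among those higher and chd2 (-0.26 ± 0.06) and chd8 (-0.25 ± 0.08) lower. Those that did not pass were adnp (-0.07 ± 0.06), dyrk1a (0.16 ± 0.09), ank2 (0.24 ± 0.16), pogz (-0.16 ± 0.08) and grin2b.

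Regional identity genes mostly did not pass, beside 42.1% of all genes tested that passed (19.2% higher and 22.9% lower). Of 29 telencephalic genes 3 rose and 3 fell (1 fell without stage 45 replicate 3 or stage 46 replicate 2, and 0 without stage 45 replicate 2). With upper quartile factors 4 rose and 0 fell, with RLE factors 3 rose and 1 fell, and with limma on the deposited values 5 rose and 1 fell. Of 23 hypothalamic and ventral genes 4 fell and none rose (8 fell in a fit of the 6 libraries alone), and of 27 midbrain and cerebellar genes 5 fell and 2 rose (the rises were 1 to 5 over the alternatives, and 1 without stage 45 replicate 1 or 2 or stage 46 replicate 3). The signals of the midbrain-hindbrain boundary wnt1 and fgf8 were lower: wnt1 went from 13.7, 14.7 and 16.1 CPM to 8.62, 7.29 and 7.56 CPM (-0.92 ± 0.15, adjusted p = 2.55e-05), and fgf8 fell by 0.54 ± 0.13. Among 15 retinoic acid genes 3 rose and 6 fell (4 fell without stage 45 replicate 2 or 3 or stage 46 replicate 2 or 3). The synthesizing enzyme aldh1a3 was lower (-0.98 ± 0.12) and the degrading enzyme cyp26b1 higher (0.51 ± 0.08).

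Markers of some other tissues moved with the step. Of 13 melanocyte genes 8 fell and none rose (median -1.16), and their summed level was 97.1 to 107 CPM at stage 45 and 57.1 to 61.0 CPM at stage 46. Tyrosinase tyr, the first enzyme of melanin synthesis, was at 5.89, 5.53 and 6.15 CPM and then at 1.19, 1.33 and 1.31 CPM (-2.18 ± 0.35, adjusted p = 7.11e-05). The melanosome proteins tyrp1 (-2.17 ± 0.28), pmel (-1.96 ± 0.23) and mlana (-1.40 ± 0.12) fell too, with no overlap. Of 24 retina, lens and photoreceptor genes 13 fell and 1 rose (median -0.64, 2 rose without stage 45 replicate 1), and their sum was 185 to 266 CPM and then 138 to 157 CPM. The cone opsin opn1lw was at 12.7, 5.58 and 13.8 CPM and then at 1.26, 2.61 and 2.33 CPM (-2.32 ± 0.34, adjusted p = 5.81e-05), with stage 45 replicate 2 the lowest of its stage, as it was for sag, gngt1, asmt and guca1bl. The photoreceptor calcium sensor guca1bl fell by 1.74 ± 0.36. Many genes of this list are also used by the pineal organ.

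Red blood cell genes split. The globin genes hbe1 and hbz fell, hbe1 from 82.7, 64.7 and 74.7 CPM to 12.8, 11.9 and 8.43 CPM (-2.76 ± 0.24, adjusted p = 1.03e-06) and hbz from 26.1, 18.4 and 12.3 CPM to 3.18, 1.72 and 2.18 CPM (-3.06 ± 0.81, adjusted p = 0.00894). In both the stages were wholly apart, and both had fallen from stage 44 to 45 (-1.68 ± 0.20 and -2.28 ± 0.54). The more abundant hba3 and hbd, outside the rule for named genes, had values of 482 to 550 and 378 to 439 CPM and then 664 to 1118 and 527 to 849 CPM (0.80 ± 0.26 and 0.79 ± 0.22), calls lost without stage 46 replicate 1 and for hba3 also without each stage 45 replicate and stage 46 replicate 2. In all, 4 of 15 red blood cell genes rose and 4 fell, beside 19.2% of all genes higher and 22.9% lower. The rises were 2 without stage 45 replicate 2 or 3 or stage 46 replicate 2, and 1 without stage 46 replicate 1. The sum of the list was 1238 to 1367 CPM and then 1543 to 2348 CPM. Globin genes have near-identical copies that may share reads.

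Some fibroblast and pericyte genes rose. Of 22 genes of pericytes, meninges and fibroblasts 8 rose, 2 fell and 12 did not pass (median 0.30, 1 fell without stage 45 replicate 1 or 3 or stage 46 replicate 1 or 2), with a sum of 505 to 561 CPM and then 696 to 750 CPM. Collagen col1a1 was at 14.5, 17.6 and 20.5 CPM and then at 64.3, 72.1 and 65.2 CPM (1.95 ± 0.29, adjusted p = 0.000123), and smooth muscle actin acta2 rose by 1.45 ± 0.18. The 2 that fell, outside the rule for named genes, were the transcription factors foxc1 and twist1. Their log2 fold changes were -0.80 to -0.55 and -0.77 to -0.47 over the settings, and the twist1 call was lost under 6 alternatives. Of 16 choroid plexus genes 7 rose and 3 fell (sum 365 to 377 CPM, then 391 to 405 CPM), with the transporter slc4a5 at 4.09, 4.70 and 3.85 CPM and then at 11.01, 15.3 and 11.6 CPM (1.58 ± 0.14). Its members msx1 and lmx1a fell, by log2 fold changes of -0.64 to -0.48 and -0.55 to -0.40 over the settings. Of 20 endothelial genes 3 rose and 7 fell (4 fell without stage 46 replicate 2, and 1 rose without stage 45 replicate 1), with sums of 473 to 513 CPM and then 492 to 509 CPM. Leukocyte genes were low, at a sum of 32.5 to 36.7 CPM and then 36.6 to 44.7 CPM over 13 measured genes. Of these, csf1r and cd74 rose, and csf1r did not pass without stage 45 replicate 2 or without stage 46 replicate 2 or 3. Of 20 skeletal muscle genes 1 fell (sum 107 to 209 CPM, then 93.2 to 165 CPM), and it did not pass without stage 46 replicate 3, while 2 fell without stage 46 replicate 1. Of 16 epidermal genes 3 fell (sum 451 to 460 CPM, then 398 to 424 CPM). Beside these counts, 19.2% of all genes were higher and 22.9% lower. The leukocyte, muscle and epidermal lists had no larger share called than all genes. No measured member of these lists was at 0 in all 6 libraries. What differences in dissection or in these tissues contributed to the brain gene groups above was not tested.

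**Figure D4:**
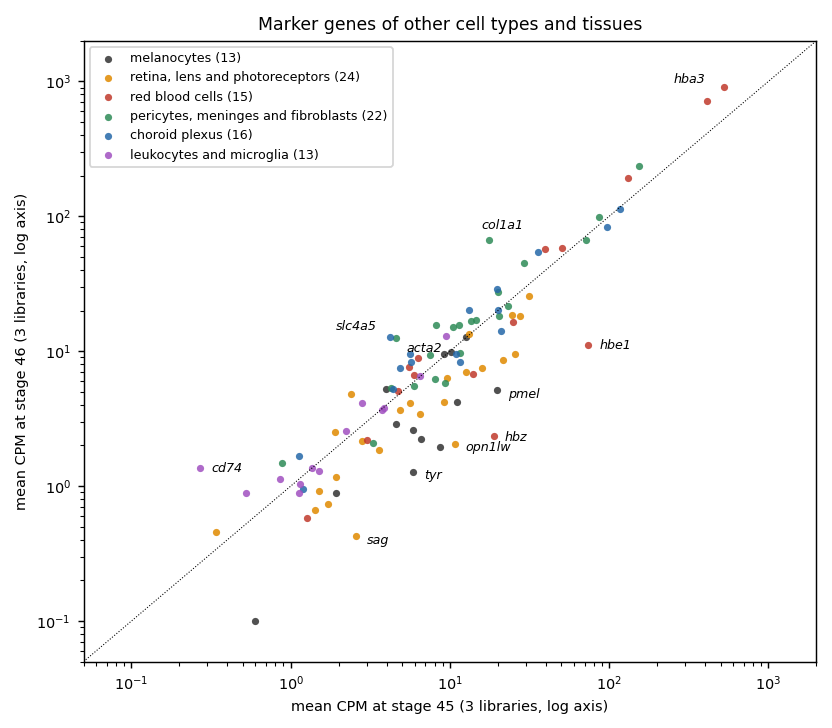
Mean CPM at stage 45 (horizontal, log axis) against stage 46 (vertical, log axis) for the measured markers of 6 other cell types and tissues, one point per gene, with the dotted line at equal level. Most melanocyte and photoreceptor genes, hbe1 and hbz lie below the line, and col1a1, acta2, slc4a5 and cd74 above it.

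Among the 12 largest rises were genes of varied kinds. The gene darmin, named for a peptidase of the endoderm in *Xenopus*, was at 3.17, 1.99 and 0.923 CPM and then at 20.03, 13.9 and 23.2 CPM (3.17 ± 0.28, adjusted p = 3.01e-08). Transferrin tf, an iron carrier, rose from 0.925, 1.21 and 1.46 CPM to 8.09, 8.34 and 10.5 CPM (2.94 ± 0.29), and its level at stage 47 was 38.2 to 42.6 CPM. Both stages were wholly apart in these genes. The neuropeptide pth2 was at 4.33, 3.15 and 2.54 CPM and then at 18.8, 16.6 and 16.7 CPM (2.35 ± 0.21, adjusted p = 1.96e-08), and phospholamban pln, a regulator of the calcium pump, rose by 2.37 ± 0.34. Among the 12 largest falls beside the globin, pigment and photoreceptor genes were trmt61a, a tRNA methyltransferase, from 12.3, 10.0 and 10.5 CPM to 2.59, 3.12 and 2.37 CPM (-2.03 ± 0.14, adjusted p = 2.54e-10), the mitochondrial nucleoside diphosphate kinase nme4 (-1.94 ± 0.13) and haus5, a subunit of the spindle complex augmin (-1.79 ± 0.17).

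Some genes stood off the line between their neighbours at stage 46. Against the mean of stages 45 and 47, 2356 of 16049 genes (14.7%) differed, 1397 higher (8.7%) and 959 lower (5.98%). The total was 1525 without stage 46 replicate 2 and 1570 without stage 46 replicate 1. Of 21 measured circadian genes 9 were lower at stage 46 than that mean and none higher. From stage 46 to 47, 14 of the 21 rose and none fell (median 0.78), while the median against stage 45 was 0.07. The repressor cry2 was at 45.6, 45.5 and 45.5 CPM at stage 45, at 26.6, 28.4 and 24.8 CPM at stage 46 and at 56.6 to 60.8 CPM at stage 47 (-0.96 ± 0.07 against the mean, adjusted p = 8.99e-10). The output factor tef (-0.82 ± 0.07) and per3 (-0.89 ± 0.05) followed the same course, with every stage 46 library under every library of both neighbours. Against stage 45 alone, 5 of the 21 fell and 2 rose, beside 22.9% of all genes lower and 19.2% higher. The rises were 1 to 6 over the alternatives, 4 without stage 45 replicate 1 and 1 without stage 46 replicate 2. Among those that rose was nr1d1, with a log2 fold change of 0.55 to 0.69 over the settings. The time of day at which brains were taken is not given in the labels, and its part was not tested.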

How the data were processed

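Gene counts as whole numbers were deposited by the authors for 18 untreated time course libraries and, separately, for 9 drug-series libraries, and log2 values after full-quantile normalization, which from the values are log2(CPM + 1). Per the submitters' processing notes, STAR 2.7.3 was used; the counter, its strand setting, the annotation and the genome build were not given in the sources used here, so overlapping or antisense genes and near-identical copies are uncertain. From the values, every row of the deposited time course counts reached 1 CPM in at least 3 libraries. No symbol was given for 3135 genes (19.5%), which were tested but not named.

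All 18 libraries were fitted in edgeR 4.0.16 (R 4.3.3) with TMM factors, filterByExpr (which removed 0 genes), one mean per stage, no covariate and robust quasi-likelihood F-tests, and a gene was called where its p, adjusted by Benjamini and Hochberg across the 16049 genes, was under 0.05. Stage 46 was contrasted with stage 45 and with the mean of stages 45 and 47. Fold changes are log2 values ± SE with 3 libraries a stage. The SE is the size of the fold change over the square root of its F statistic. It thus rests on the spread estimated over all 18 libraries. Levels are TMM-scaled CPM in replicate order, and list medians and calls are over measured members. The method was tested on simulated data drawn from the same kind of model as the fit, with a small set of genes changed. That test does not cover a step in which 42.1% of genes are called. The 6 libraries held 12.9 to 20.6 M counts. A floor of 3 counts came to 0.145 to 0.231 CPM in the stage 45 libraries and covers counting error only. Libraries of a stage differed by more than sampling noise, so none was a duplicate.

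The comparison, the 56 lists (1 of which, of mitochondrial transcripts, had no measured member) and 4 further lists were chosen with earlier results of these data known. Named genes were the 12 largest rises and falls and the 8 with the lowest p each way among called, non-overlapping genes whose log2 CPM averaged 1 or more and whose symbol was usable, up to 4 called members a list with the lowest p, 30 genes given whatever their values, and the 5 genes farthest off the line each way. The text gives those that describe each group, and a few are not reported here. Alternatives were 2 other scalings, 2 other filters, DESeq2 1.42.0, limma 3.58.1 on the deposited log2 values, a replicate block, the 6 libraries alone, and each library left out. Equal replicate numbers did not pair the libraries.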

Additional observations from a re-analysis of the deposited data

Results flagged for a closer look

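The step into stage 46 and the step out of it differed by edgeR's test of stage 46 against the mean of stages 45 and 47 in 2356 genes, and the 5 farthest each way with a usable level and symbol are given here, as log2 differences with 3 libraries a stage. The gene darmin stood 2.59 ± 0.21 above that mean (3.24 to 5.71 CPM at stage 47). Next came genes of cell division whose levels were lower at stage 47: parpbp, a PARP1-binding protein, at 2.04 ± 0.17, the spindle midzone protein prc1.2 at 1.86 ± 0.11, the meiotic inhibitor fbxo43 at 1.86 ± 0.27 and topoisomerase top2a at 1.86 ± 0.07. For top2a the levels were 150, 156 and 151 CPM at stage 45, 145, 131 and 112 CPM at stage 46 and 7.97 to 9 CPM at stage 47. Lower than the mean were complement c3 (-1.61 ± 0.18), the heme-binding protein hebp2 (-1.48 ± 0.08), the cone opsin opn1lw (-1.38 ± 0.33), the melanosomal glycoprotein gpnmb (-1.25 ± 0.25) and the arginase arg2 (-1.14 ± 0.17). Complement c3 was at 29.0, 38.7 and 32.4 CPM at stage 45, at 9.09, 7.57 and 14.2 CPM at stage 46 and at 23.8 to 36.5 CPM at stage 47, so that stage 46 did not overlap with either neighbour.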

How the results depend on the processing

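Under other settings the count for stage 46 against stage 45 was 6244 (filter at 5 CPM) to 7478 (the 6 libraries alone), with 7101 by limma and 6623 by DESeq2, and 5541 to 6433 with a library left out. Asking for at least 1 log2 unit, a requirement added once values had been seen, left 832. After stage means were removed, same-numbered libraries of the stages correlated at 0.0142 to 0.0358 and the others at -0.0572 to 0.0218. These values, taken around means of 3 libraries, cannot show whether equal numbers mark a shared clutch or day. With the replicate block 6681 genes were called, and the block lost none of the 251 named calls. Of those, 240 to 251 held under each other scaling, filter and tool (of 242 measured with the filter at 5 CPM) and 234 to 246 with a library left out, and none changed direction. Against the mean of stages 45 and 47 the count was 2260 to 2672 under the other settings, 2280 with the block, and 1525 to 2203 with a library left out; the cause was not tested. No scaling moved the median of all genes by over 0.1 log2 units. Depth limits genes near 1 CPM most, and differences in time of day, dissection and clutch between stages cannot be told apart from stage.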

Other observations

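Several further gene groups had members that changed in both directions, beside 19.2% of all genes higher and 22.9% lower. The oxidative stress, motile cilia and p53 target counts below lie near those shares. Of 21 genes of innate immunity and interferon signalling 9 rose and 3 fell (median 0.38). The rises were 6 without stage 46 replicate 1 and 8 with any other library left out. The interferon signalling factors irf9, at 3.75, 3.15 and 3.69 CPM and then at 7.30, 7.57 and 7.22 CPM (1.06 ± 0.14, adjusted p = 1.32e-06), and stat2 (0.75 ± 0.10) and the chemokine cxcl14 (1.01 ± 0.14) rose, all without overlap. Of 17 genes of oxidative stress 4 rose and 3 fell, with the metallothionein mt4 at 6.58, 6.06 and 6.69 CPM and then at 19.4, 20.1 and 19.6 CPM (1.62 ± 0.19) and the peroxidase gpx1 lower (-0.62 ± 0.09). Of 33 motile cilia genes 7 rose and 9 fell, and the ciliogenesis factor foxj1 fell by 0.65 ± 0.14. Of 42 axon guidance genes 9 rose and 2 fell (16 rose with upper quartile factors, and 1 fell without stage 46 replicate 3). Of 17 p53 targets 4 rose and 5 fell (3 fell without stage 45 replicate 2 or 3 or stage 46 replicate 1 or 2). Of 14 cartilage genes 1 rose and 4 fell (2 rose without stage 45 replicate 2).

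Other lists had few calls. Notch and Wnt feedback had 3 of 15 lower, and 1 lower without stage 45 replicate 1 or 2 or stage 46 replicate 2 or 3, with axin2, a Wnt target, at -0.41 ± 0.07. Hedgehog targets had 1 of 6 higher, the antagonist hhip (0.53 ± 0.12). Estrogen-related genes had 2 of 10 lower (1 without stage 45 replicate 2 or 3 or stage 46 replicate 2 or 3). Hindbrain hox genes had 2 of 21 lower and 1 higher, and in a fit of the 6 libraries alone 10 lower; without stage 45 replicate 1, 2 were higher, and without stage 45 replicate 2 or 3 or stage 46 replicate 1 or 3, 1 was lower. Monoamine and acetylcholine genes had 2 of 17 higher (1 without any single library of the 6) and 3 lower (0 without stage 45 replicate 3 or stage 46 replicate 2). Cranial ganglia and inner ear had 5 of 22 lower (3 without stage 45 replicate 2 or 3 or stage 46 replicate 2) and 2 higher (1 without stage 45 replicate 1 or stage 46 replicate 2). Of the 4 measured genes of liver, gut and pancreas, tf was higher and the apolipoprotein apoa1 lower.

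The 3 DMSO libraries of the drug series are also stage 46 brain but come from a separate table of counts, and DMSO itself was not given to the time course, so no test was made. Of the 39 genes with the largest or surest change, 38 are in both tables, and on log2(CPM + 0.5) the DMSO mean lay closer to untreated stage 46 for 33 and closer to untreated stage 45 for 5, namely col1a1, pdzd7, opn1lw, vill and nln. For sds the DMSO libraries were at 205, 176 and 253 CPM, above the untreated stage 46 mean of 28.2 CPM without TMM scaling, and for darmin at 14.3, 5.21 and 8.18 CPM, against 19.7 CPM.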
